A study of Mus musculus with 60 samples.

Results

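Hox genes encode the homeodomain transcription factors that give segments along the head-to-tail axis their identity, and in mice they lie in 4 clusters called HoxA, HoxB, HoxC and HoxD. Members were all genes whose symbol is Hoxa, Hoxb, Hoxc or Hoxd plus a number, which gave 39 of the 21938 protein-coding genes on chromosomes 1 to 19, X and Y in GENCODE M21 (GRCm38). HoxA held 11 genes, HoxB 10, HoxC 9 and HoxD 9. Peaks were taken as belonging to the clusters when they touched the span of the genes, widened by 50 kb on each side, or when their assigned symbol was that of a Hox gene. HoxA spanned chr6:52155590-52260880, HoxB chr11:96194316-96368256, HoxC chr15:102921103-103036852 and HoxD chr2:74668310-74765142. From low to high coordinate the order ran from Hoxb13 to Hoxb1, Hoxc13 to Hoxc4 and Hoxd13 to Hoxd1, while in HoxA the number rose and Hoxa13 was at the high end.

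CUT&RUN-seq, in which a nuclease tethered to an antibody releases the DNA around a histone mark, was used on nuclei from the hippocampus of male Emx1-NuTRAP mice for H3K27me3, H4K8ac and an IgG control. Every group carried the same alleles, an Emx1-driven Cre and the NuTRAP cassette, so that nuclei of the Emx1 lineage, mostly excitatory neurons, bear the tag used for purification. The tag marks what the Emx1-Cre driver has recombined, which can include neural progenitors. Exercised mice had free use of a running wheel from postnatal day 21 to 41, and sedentary mice lived in standard cages without one. In the SIT arm (simultaneous isolation), nuclei and RNA were taken from 1 tube holding both hippocampi of a mouse ( 4 samples per antibody and condition) and in the left and right arms from a separate isolation of 1 hippocampus (3 samples each, with left and right from different mice). The data were 12 peak lists, 1 for each of the 2 marks in each condition and arm. A list gives positions without signal, depth or sample of origin, so it counts as 1 unit with no replicate spread.

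H3K27me3 is laid down by Polycomb repressive complex 2 and marks genes that are held silent, while H4K8ac is found at active promoters and enhancers. Hox clusters are the classic Polycomb targets: in tissues in front of the hindbrain, which include the hippocampus, Hox genes are normally silent and the mark spreads over the whole cluster rather than over single promoters. In tissues that do use Hox genes, the mark is removed from part of a cluster and the rest stays covered, so that the edge of the domain follows body position.

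The lists differed in length. H3K27me3 lists held 9899 to 25693 peaks covering 41.2 to 135.6 Mb, and H4K8ac lists 12168 to 38136 peaks covering 24.5 to 80.3 Mb. The exercised right H3K27me3 list had the fewest peaks and the narrowest maximum width, 76888 bp against 183681 to 233495 bp in the other 5. Start sites of 0 to 1 of 12 excitatory and pan-neuronal markers and 4 to 7 of 8 interneuron markers lay inside H3K27me3 peaks, and inside H4K8ac peaks 1 to 3 and 0. The shares of all protein-coding genes were 4.99 to 10.4% and 4.74 to 18.5%, so the excitatory counts are near the background for both marks. Of the glial and endothelial markers, 0 to 1 of 4 astrocyte, 0 to 1 of 4 oligodendrocyte, 0 to 1 of 4 microglial and 2 of 3 endothelial genes had the start site inside H3K27me3 peaks. For H4K8ac these were 0 to 1, 0 to 1, 0 and 0. Emx1 itself, the driver gene, had its start site in no peak of either mark.

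H3K27me3 covered the 4 clusters nearly end to end. Of all bases in the gene spans, 98.8% lay inside peaks in the sedentary SIT list, 99.0% in exercised SIT, 96.5% in sedentary left, 97.9% in exercised left, 99.4% in sedentary right and 87.0% in exercised right. The exercised right list stood below the other 5, which lay within 3 percentage points of each other. The mean over lists was 96.4 ± 4.73% (SD, n = 6 lists) and 98.3 ± 1.15% without the exercised right list.

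HoxC, whose genes pattern the trunk, limbs and skin, was a single unbroken peak in 5 of 6 lists. The peak was 193722 bp wide in sedentary SIT, 193011 bp in exercised SIT, 183681 bp in sedentary left, 193793 bp in exercised left and 193654 bp in sedentary right. It was the widest H3K27me3 peak of the whole list in 4 of these 5 lists, and the second widest in exercised SIT, behind a 233495 bp peak over Plcb4. In exercised right the same span was covered to 88.5% by 9 peaks, the widest of 36458 bp.

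HoxA was covered to 100% in sedentary SIT, 99.7% in exercised SIT, 99.2% in sedentary left, 99.4% in exercised left, 99.8% in sedentary right and 98.3% in exercised right. This was the one cluster that the exercised right list covered almost as fully as the others, and its 68526 bp peak there was the third widest of 9899. HoxD was covered to 98.3%, 100%, 99.4%, 99.8%, 100% and 92.6% in the same order. HoxB, the longest cluster at 173941 bp, was covered least: 97.5%, 97.3%, 90.9%, 94.6%, 98.4% and 76.1%. In sedentary SIT, the 3 widest of 10279 H3K27me3 peaks lay over HoxC, HoxA and HoxB. With the spans widened by 50 kb, the covered share of the 4 clusters together was 72.8 to 88.4%, so the flanks were covered less than the clusters.

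**Figure D1:**
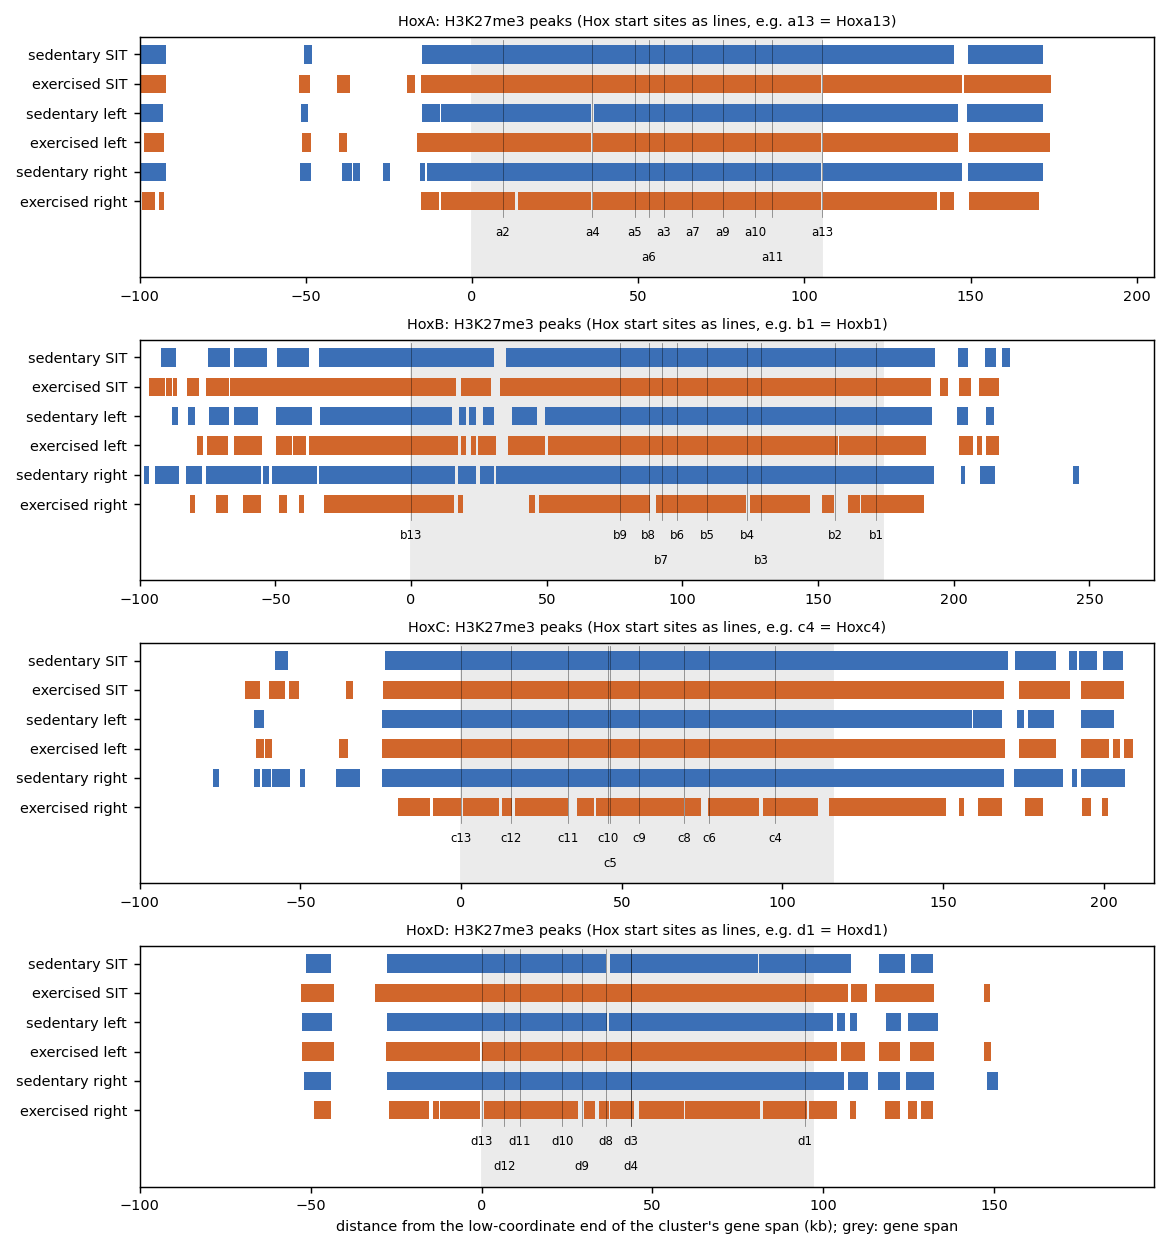
H3K27me3 peaks (bars) of the 6 lists over each Hox cluster and 100 kb on either side, in kb from the low-coordinate end of the gene span (grey), with labelled Hox start sites as thin lines. Blue is sedentary and orange exercised; HoxC is 1 bar in 5 lists and 9 bars within the span in exercised right, HoxB has gaps between Hoxb13 and Hoxb9 in all 6 lists, and breaks under about 1 kb are barely visible at this scale.

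**Figure D2:**
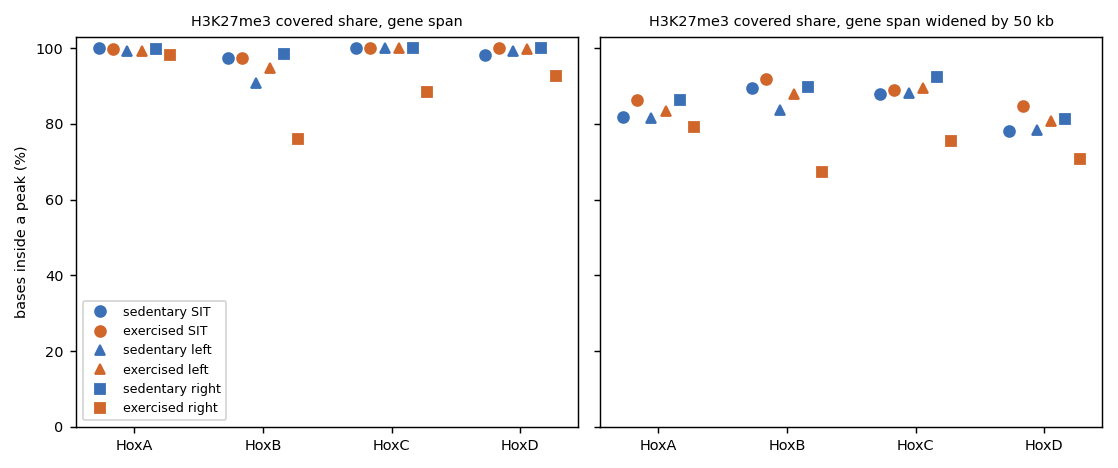
Share of bases inside H3K27me3 peaks (%) for each cluster, over the gene span (left) and the span widened by 50 kb (right), 1 point per list with no error bar since a list has no replicates. In the gene span all points lie above 90% except the exercised right points of HoxB (76.1%) and HoxC (88.5%).

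Single genes were counted by whether the start site, the 5′ end of the gene in GENCODE, lay inside a peak. For H3K27me3 this held for 39 of 39 Hox genes in sedentary SIT (100%, exact 95% binomial interval 91.0 to 100%), against 7.18% of all protein-coding genes. It held for 38 of 39 in exercised SIT, sedentary left and sedentary right (97.4%, 86.5 to 99.9%), where the share of all genes was 10.4%, 7.33% and 9.75%. In exercised left it was 36 of 39 (92.3%, 79.1 to 98.4%; all genes 8.05%) and in exercised right 30 of 39 (76.9%, 60.7 to 88.9%; all genes 4.99%). The intervals cover counting over genes, which share peaks and are not independent. Within 1000 bp of the start site, 39 of 39 genes touched a peak in each of the 6 lists.

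Of the 39 genes, 30 had the start site inside a peak in all 6 lists, and 20 were covered over their whole length in all 6. The other 9 were outside in at least 1 list: Hoxa13 in 4, Hoxa4 in 3, Hoxd13 in 2, and Hoxb2, Hoxb4, Hoxc8, Hoxc11, Hoxc13 and Hoxd9 in exercised right alone. By paralog group, the number that orders equivalent genes between clusters, group 13 was outside in 7 of 24 gene and list pairs and group 4 in 4 of 24. Groups 13 and 4 hold genes of opposite use, the former for the tail end, digits and genitalia and the latter for the neck. Groups 3, 5, 6, 7, 10 and 12 were inside in every list by these GENCODE start sites. With start sites from RefSeq, Hoxc5 and Hoxc12, of groups 5 and 12, were outside in exercised right. Among genes at the cluster ends, Hoxb1 and Hoxd1, which act in the hindbrain, and Hoxb13 and Hoxc4 had the start site inside in 6 of 6 lists, and Hoxc13, which is needed for hair and nails, in 5 of 6.

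**Figure D3:**
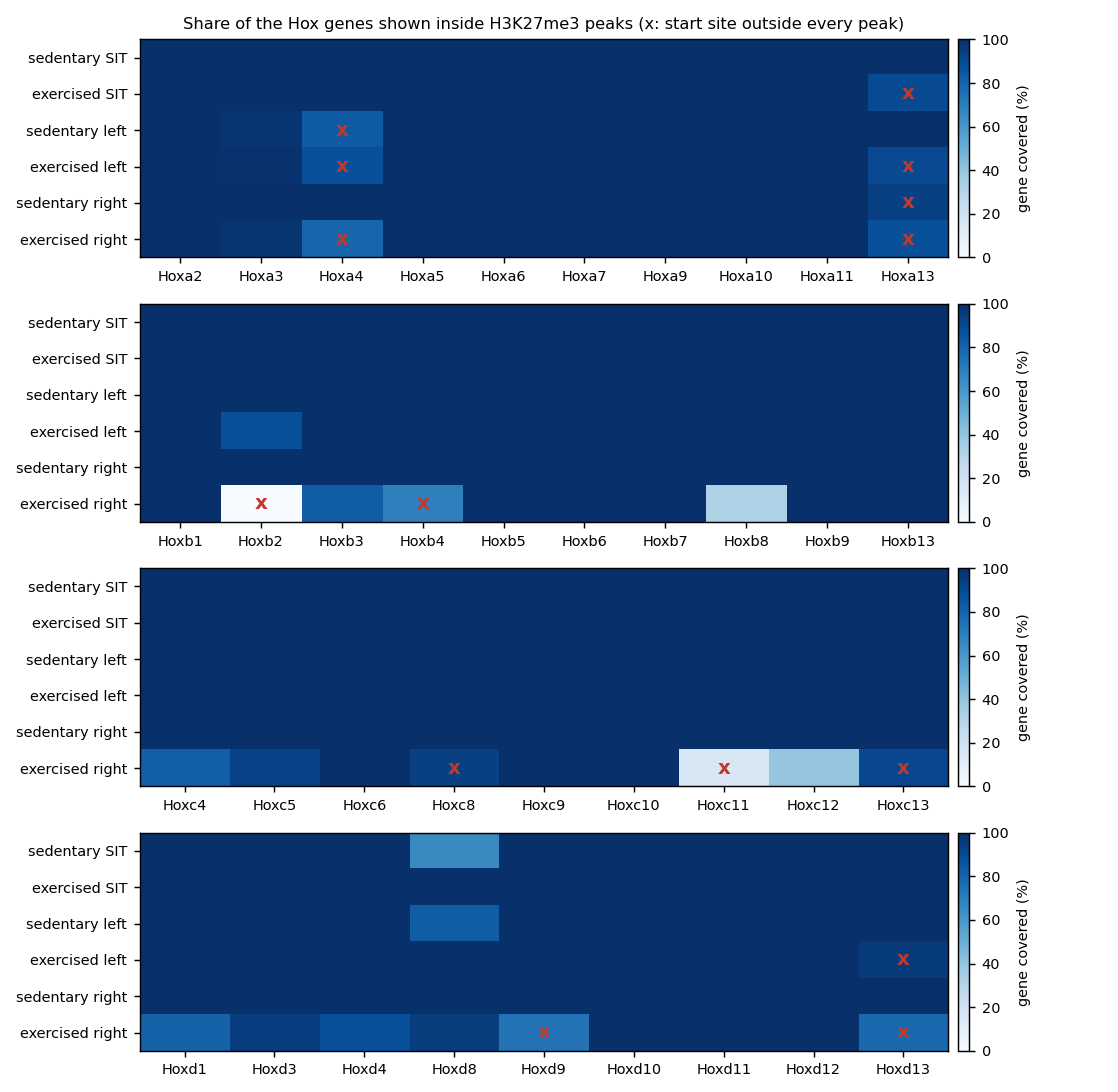
Share of the length of the Hox genes shown that lay inside H3K27me3 peaks (%, colour) in the 6 lists, with an x where the start site was outside every peak. Most cells are fully covered, and the x marks fall on Hoxa4, Hoxa13 and Hoxd13 in several lists and on 6 further genes in the exercised right list alone.

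The files' own symbols give a different count, since ChIPseeker names each peak for 1 gene. By symbol, 5, 4, 8, 5, 4 and 18 Hox genes were named in the sedentary SIT, exercised SIT, sedentary left, exercised left, sedentary right and exercised right H3K27me3 lists, with 7 to 27 peaks between them. The exercised right list named the most genes and covered the least, and its domains were in more pieces. Hoxb1, Hoxb13, Hoxc13 and Hoxd1, each at the edge of a cluster, were named in all 6 lists, and 21 genes in none. In HoxA only Hoxa10 was ever named. The whole-cluster HoxC peak carried the symbol Hotair, a noncoding RNA between Hoxc12 and Hoxc11, in 5 of 5 lists, and the widest HoxB peak that of Hoxb3os in those 5.

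A break was defined as a stretch of the gene span outside every peak of a list. There were 3 breaks in sedentary SIT, 3 in exercised SIT, 8 in sedentary left, 9 in exercised left, 4 in sedentary right and 28 in exercised right, 55 in all. Of these, 26 were under 1000 bp, and 15 held the start site of a Hox gene. HoxB had 25, HoxD 13, HoxC 9 and HoxA 8. Breaks fell again at the same places: 11 places were outside peaks in at least 2 lists and 4 of them in at least 4 lists. Of the 11 places, 5 lay in the repeat-rich DNA between Hoxb13 and Hoxb9, and the other 6 in Hoxa13, Hoxa4, Hoxd13, Hoxd8 (at 2 places) and Hoxb2. The one in Hoxb2 was 425 bp of exon sequence, 1181 bp from the start site, at chr11:96351706-96352130, in exercised left and exercised right.

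Hoxa13 (ENSMUSG00000038203, chr6:52257694-52260880, minus strand), needed for digits and the genital tract, had the start site in a gap of 522 bp in exercised SIT, 549 bp in exercised left, 351 bp in sedentary right and 687 bp in exercised right. All 4 gaps held the first exon's outer end and began within 200 bp of each other, and both sedentary SIT and sedentary left had no gap there. Hoxa4 (ENSMUSG00000000942, chr6:52189671-52191753, minus strand), a gene of the neck vertebrae, lay in a gap of 867 bp in sedentary left, 347 bp in exercised left and 637 bp in exercised right, and was covered in both SIT lists and sedentary right. Hoxd13 (ENSMUSG00000001819, chr2:74668310-74671599, plus strand), the digit gene of HoxD, lay in a gap of 476 bp in exercised left and 1215 bp in exercised right. Neither condition had these gaps to itself at Hoxa13 and Hoxa4, and at Hoxd13 a gap in sedentary left ended 0.111 kb before the start site, which it left covered. In Hoxd8 (ENSMUSG00000027102, chr2:74704615-74707933, plus strand), a trunk gene, the start site was covered but sequence further into the gene was not, over 1142 bp in sedentary SIT, 581 bp in sedentary left and 172 bp in exercised right.

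The sequences at these gaps are shown because they have a property that the choice of genes did not use. For each start site, 250 bases before to 50 bases after it were read from GRCm38.p6 (RefSeq) on the gene's strand, with CpG dinucleotides (the letters CG, which read the same on both strands) in capitals. The first 3 are the start sites that fell outside peaks in at least 2 lists, and Hoxa5 and Hoxa9, which were inside in all 6, are given for contrast. They lie at chr6:52260831-52261130 (Hoxa13), chr6:52191704-52192003 (Hoxa4), chr2:74668060-74668359 (Hoxd13), chr6:52204538-52204837 (Hoxa5) and chr6:52231040-52231339 (Hoxa9).
Hoxa13: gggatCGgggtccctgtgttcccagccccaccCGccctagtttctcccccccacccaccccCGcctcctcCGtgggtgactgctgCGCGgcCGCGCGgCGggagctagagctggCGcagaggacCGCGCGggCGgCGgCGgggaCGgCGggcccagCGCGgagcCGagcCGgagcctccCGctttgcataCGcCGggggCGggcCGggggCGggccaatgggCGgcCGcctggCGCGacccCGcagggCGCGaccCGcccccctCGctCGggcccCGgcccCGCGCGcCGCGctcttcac
Hoxa4: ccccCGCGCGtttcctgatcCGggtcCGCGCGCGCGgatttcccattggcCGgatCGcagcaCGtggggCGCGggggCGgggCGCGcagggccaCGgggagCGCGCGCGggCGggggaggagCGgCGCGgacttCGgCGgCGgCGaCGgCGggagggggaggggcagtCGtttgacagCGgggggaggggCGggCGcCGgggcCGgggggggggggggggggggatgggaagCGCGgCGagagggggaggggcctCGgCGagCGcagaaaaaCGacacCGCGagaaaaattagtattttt
Hoxd13: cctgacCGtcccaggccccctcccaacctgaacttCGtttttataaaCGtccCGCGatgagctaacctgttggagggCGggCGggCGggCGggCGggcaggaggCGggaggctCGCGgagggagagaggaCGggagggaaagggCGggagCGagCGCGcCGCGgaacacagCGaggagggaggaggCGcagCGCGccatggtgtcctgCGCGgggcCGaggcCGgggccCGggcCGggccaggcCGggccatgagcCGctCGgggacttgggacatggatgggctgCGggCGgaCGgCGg
Hoxa5: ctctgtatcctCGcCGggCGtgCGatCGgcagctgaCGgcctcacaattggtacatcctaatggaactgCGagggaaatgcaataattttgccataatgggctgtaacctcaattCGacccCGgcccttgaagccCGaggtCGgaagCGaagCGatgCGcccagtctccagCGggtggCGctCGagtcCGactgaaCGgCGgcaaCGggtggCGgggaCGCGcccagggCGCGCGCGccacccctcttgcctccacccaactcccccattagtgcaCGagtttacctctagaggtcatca
Hoxa9: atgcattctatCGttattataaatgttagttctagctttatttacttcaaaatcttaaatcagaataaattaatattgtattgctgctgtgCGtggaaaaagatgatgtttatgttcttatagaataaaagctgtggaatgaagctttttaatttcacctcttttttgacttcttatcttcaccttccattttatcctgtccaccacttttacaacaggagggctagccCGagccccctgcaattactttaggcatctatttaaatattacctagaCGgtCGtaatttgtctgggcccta

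These 300 bases held 47 CpG at Hoxa4, 45 at Hoxa13 and 37 at Hoxd13, the highest 3 values of the 39 Hox genes. The GC content was 76.3%, 81.0% and 74.0%. Among RefSeq promoters of the same length, 1 per gene for 27025 genes, 1.41%, 1.88% and 5.37% held as many CpG. The 30 start sites that were inside peaks in all 6 lists held 4 to 29 CpG (median 14) with 34.3 to 69.7% GC, so they did not overlap the first 3 on either measure. The 6 start sites outside in exercised right alone held 3 to 26 CpG (median 17). Hoxb2, with 3, was just below the lowest of the 30, and the other 5 were within their range. Hoxa5, with 29 CpG, was covered throughout, as was Hoxa9 with 5. A link between GC content and the yield of CUT&RUN-seq or sequencing reads was not tested, since the lists hold no signal.

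The same count was made over start sites outside the 4 widened clusters that lay in other broad H3K27me3 domains (peaks joined across gaps under 5 kb, at least 50 kb wide), with a limit of 35 CpG set after the Hox values were seen. Of start sites with at least 35 CpG, 1 of 16 lay between peaks in sedentary SIT, 6 of 35 in exercised SIT, 4 of 16 in sedentary left, 6 of 20 in exercised left, 5 of 27 in sedentary right and 6 of 9 in exercised right. Below 35 CpG the shares were 3.46%, 4.84%, 6.55%, 7.67%, 5.87% and 15.9%, lower than the 6.25%, 17.1%, 25%, 30.0%, 18.5% and 66.7% above it in each list. Neighbouring genes share domains, and no test was made.

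**Figure D4:**
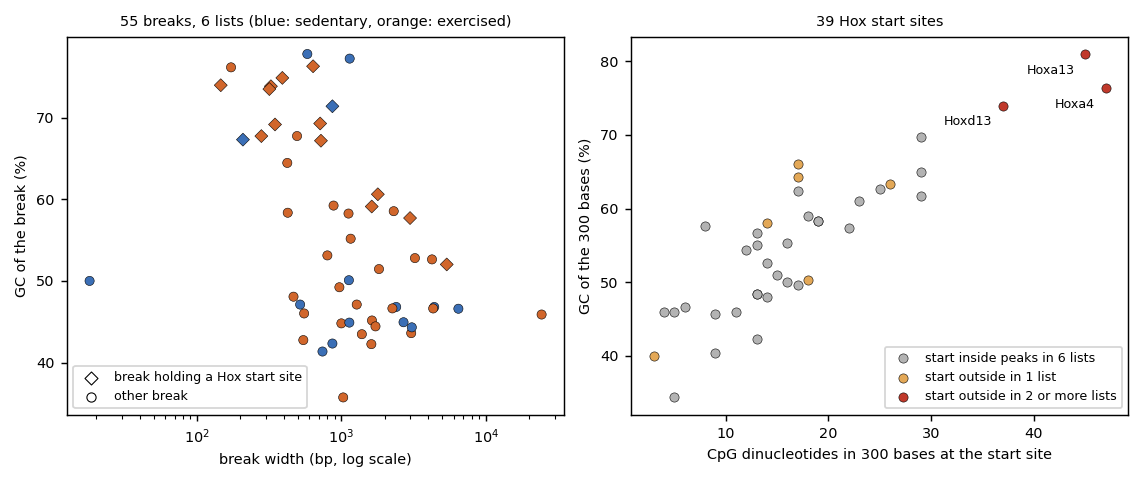
Left, width (bp, log scale) against GC content (%) of the 55 H3K27me3 breaks, with diamonds for the 15 that held a Hox start site, which had 52.0 to 76.3% GC. Right, CpG count against GC content (%) of the 300 bases at each of the 39 Hox start sites; Hoxa4, Hoxa13 and Hoxd13, outside peaks in 2 or more lists, sit above the other 36 on both axes.

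The 15 breaks with a Hox start site had a median width of 637 bp and a median GC content of 69.2%, and 71.7% of their bases were exonic. The other 40 had a median width of 1139 bp and a median GC content of 47.0%, and 13.5% of their bases were exonic. The Hoxd8 break that sedentary SIT and exercised right shared, at chr2:74705643-74705814 on the plus strand, lies wholly in exon sequence and held 26 CpG in 172 bases. The HoxB place at chr11:96211451-96211533, outside peaks in 5 lists, lies in no annotated gene and held 1 CpG in 83 bases. Both are shown from GRCm38.p6 with CpG in capitals.
Hoxd8 break: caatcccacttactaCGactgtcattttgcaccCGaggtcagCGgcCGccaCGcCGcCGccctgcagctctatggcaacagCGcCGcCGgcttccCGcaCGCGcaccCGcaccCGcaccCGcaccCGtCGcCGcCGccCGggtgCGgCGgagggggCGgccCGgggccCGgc
HoxB break: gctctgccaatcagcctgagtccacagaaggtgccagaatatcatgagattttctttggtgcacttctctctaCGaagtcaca

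The shared places with no gene lay between Hoxb13, a gene of the tail bud and prostate, and Hoxb9, which acts in the thorax. The 2 genes are 74009 bp apart, at chr11:96197448-96271456, a stretch of which 34.1% is repeat sequence. Peaks covered it to 94.1% in sedentary SIT, 93.7% in exercised SIT, 78.7% in sedentary left, 88.0% in exercised left, 96.3% in sedentary right and 62.8% in exercised right. The rest of HoxB was covered to 100% in 4 lists, 99.6% in exercised left and 85.9% in exercised right. It held 1 of 1 HoxB breaks in sedentary SIT, 2 of 2 in exercised SIT, 5 of 5 in sedentary left, 5 of 6 in exercised left, 3 of 3 in sedentary right and 3 of 8 in exercised right. The place outside peaks in most lists, chr11:96223872-96231470, held breaks of all 6 lists that met in at most 5 at any base. Exercised right left 24416 bp of it and its surroundings uncovered in 1 break, the widest of the 55. Bases of HoxB in a break of any list were 41.6% repeat sequence, against 18.5% of those covered in all 6. In the other clusters the break bases held less repeat sequence than the covered ones, 8.38% against 13.5% in HoxA, 13.4% against 16.3% in HoxC and 10.8% against 14.8% in HoxD. Whether reads that map to several places were dropped there was not tested.

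The exercised right list broke the clusters at 28 places. It left Hoxb2, a hindbrain gene, wholly uncovered in a break of 5375 bp, and covered 14.96% of Hoxc11, 32.4% of Hoxb8, 39.5% of Hoxc12, 69.5% of Hoxb4 and 74.3% of Hoxd9. In the other 5 lists each of Hoxb4, Hoxb8, Hoxc11, Hoxc12 and Hoxd9 was covered to 100%. Hoxb2 was covered to 100% in 4 of them and to 87.8% in exercised left. This list also had the fewest peaks (9899) and the least covered length (41.2 Mb), and the part of library depth in these breaks was not tested. Cutting each list to its 9899 widest peaks removed nothing from this one, so its 87.0% of the 4 spans could not change. The other 5 lists kept their widest peaks, most of those over the clusters among them, and covered 96.0 to 99.4%. The cut therefore cannot show the part of list length.

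The borders of the domain were similar between lists at some ends and moved at others. Reach is the distance from the end of the gene span to the outer end of the outermost peak that touches the span, negative where that peak ends inside it. It is given first with peaks less than 5 kb apart joined and then without joining. Beyond Hoxa13 the joined reach was 65.4 to 68.9 kb (n = 6 lists), past the noncoding RNA Hottip and past Evx1, a homeobox gene of the same ancestral array. Without joining, the Hoxa13 border lay at the gap over the Hoxa13 start site in 4 lists and at 39.6 kb in sedentary SIT and 40.9 kb in sedentary left. Beyond Hoxd13 the joined reach was 27.02 to 31.17 kb, past Evx2, the HoxD counterpart of Evx1. Without joining it was −0.722 to 31.17 kb, with 3 lists (sedentary left, exercised left and exercised right) ending at the gap beside the Hoxd13 start site. Beyond Hoxd1 it was 11.1 to 35.6 kb joined and 5.88 to 11.1 kb without.

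Beyond Hoxc13 the domain ended 23.6 to 24.6 kb away in 5 lists, within 1.03 kb of each other, with or without joining. In exercised right it ended at 19.5 kb joined and at −0.713 kb without. On the Hoxc4 side it reached 52.5 to 90.9 kb joined and 35.1 to 54.4 kb without. Past Hoxb1 the reach was 15.2 to 42.9 kb, or 15.2 to 19.05 kb without joining. Past Hoxb13 it was 32.2 to 98.5 kb, or 32.2 to 66.7 kb without joining, with ends in Ttll6, a tubulin polyglutamylase gene, or near Calcoco2. Evx1, Evx2, Hottip, Hotairm1, Hotair, Haglr and Hoxa11os had the start site inside H3K27me3 peaks in 6 of 6 lists and Hoxb3os in 5.

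Genes further out were mixed. Of the 30 neighbours listed, 28 matched the annotation by symbol. Lnpk and Mtx2, which flank HoxD, Skap1 beyond HoxB, and Hibadh, Snx10, Cbx5, Calcoco1, Atp5g2 and Hnrnpa3 had the start site in no H3K27me3 peak of any list. Ttll6 and Smug1 were inside in 6 lists, Skap2 and Nfe2l2 in 5 and Calcoco2 in 3.

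Several microRNAs are transcribed from inside the clusters, and 3 of their families are shown because each was under H3K27me3 together with its host cluster. Mature sequences from RefSeq (GRCm38.p6) are given 5′ to 3′ with the seed, bases 2 to 8, in capitals. miR-10a (HoxB, next to Hoxb4) and miR-10b (HoxD, next to Hoxd4) share a seed, miR-196a (HoxB and HoxC copies) and miR-196b (HoxA) share another, and miR-615 lies in HoxC. miR-196 is known to cut the Hoxb8 transcript, so that the clusters hold regulators of their own genes.
miR-10a-5p: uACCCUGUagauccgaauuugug
miR-10b-5p: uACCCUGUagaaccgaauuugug
miR-196a-5p: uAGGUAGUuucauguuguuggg
miR-196b-5p: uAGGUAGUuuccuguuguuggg
miR-615-3p: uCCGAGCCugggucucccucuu

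The whole hairpin of Mir10a, Mir10b, Mir196a-1, Mir196a-2 and Mir196b lay inside H3K27me3 peaks in 6 of 6 lists. Mir615 was inside in 5, and in exercised right 88.0% of its hairpin was covered. None of these hairpins touched an H4K8ac peak in the 6 lists.

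H4K8ac was not found at the Hox clusters. In all 6 H4K8ac lists, 0 of 39 Hox genes had the start site inside a peak. No peak lay within 1000 bp of a Hox start site, none carried a Hox symbol, and none touched a cluster widened by 50 kb. Of all protein-coding genes, the start site was inside an H4K8ac peak in 7.55% in sedentary SIT, 18.5% in exercised SIT, 13.0% in sedentary left, 4.74% in exercised left, 11.1% in sedentary right and 5.89% in exercised right. The interval for Hox genes holds the share of all genes in sedentary SIT, exercised left and exercised right, so there the count is near the background. The 39 genes lie in 4 clusters and are not independent. The covered share of the cluster spans was higher for H3K27me3 than for H4K8ac in 6 of 6 pairs of lists, by 96.4 ± 4.73 percentage points (SD). With H4K8ac at 0 in every list, all 6 differences had to be positive, so the exact permutation test of signs could only give its smallest p (two-sided, 0.03125) and adds nothing to these values.

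The nearest H4K8ac peaks are given with the symbols of the files. Next to HoxD they were at the Lnpk promoter, 88.2 to 88.6 kb from Hoxd13 in 4 lists, and at the Mtx2 promoter, 59.7 to 60.3 kb from Hoxd1 in 5 lists (in exercised left, 479 kb away). The exercised left and exercised right lists had no peak at Lnpk, and the nearest one on that side was 922.1 and 925.4 kb away, in Chn1. They were also the shortest H4K8ac lists, with 12168 and 13715 peaks. Exercised H4K8ac libraries of the separate isolation were among those that the paper left out. The exercised SIT list had the Lnpk peak. Past Hoxb1, a peak named for the promoter of Gm11529 (5 lists) or Skap1 (exercised right) lay 93.5 to 97.3 kb away. Beyond Hoxb13 the nearest peak, 117.1 to 159.3 kb away, was at the promoter of Atp5g1, Ube2z or Snf8, genes of general cell upkeep. At HoxA and HoxC most of the nearest peaks were not annotated as promoters: beyond Hoxa13 those of 4 lists, 562.5 to 695.2 kb away, carried the symbol Jazf1, and beyond Hoxc13 those of 6 lists, 111.2 to 121.8 kb away, carried the symbol Calcoco1 but lay outside that gene in GENCODE. The stretch without H4K8ac was 244.8 to 1498 kb around HoxD, 384.8 to 427.6 kb around HoxB, 324.9 to 498.5 kb around HoxC and 620.5 to 1073 kb around HoxA. Stretches at least this long made up 1.07 to 11.7% of all H4K8ac-free stretches between neighbouring peaks of the same list. This share counts stretches and not bases. A given place falls in a long stretch more often than the count implies, so the share does not show that such surroundings are rare. The share of the genome in such stretches was not computed. Between the unjoined H3K27me3 border and the nearest H4K8ac peak in the matching list, the distance over 6 lists was 57.1 to 926.2 kb on the Hoxd13 side, 48.6 to 471.7 kb on the Hoxd1 side, 51.7 to 121.6 kb on the Hoxb13 side and 75.1 to 82.1 kb on the Hoxb1 side. It was 86.6 to 118.7 kb on the Hoxc13 side, 44.7 to 227.8 kb on the Hoxc4 side and 256.3 to 695.4 kb on the Hoxa13 side.

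Exercised and sedentary lists were compared within each arm, the comparison on which the study turns. The H3K27me3 covered share of the 4 clusters was 0.215 percentage points higher in exercised than in sedentary mice in SIT and 1.45 points higher in the left arm, while in the right arm, where exercised was lower, the difference was −12.4 points. The mean difference was −3.57 ± 7.65 points (SD, n = 3 arms), less than the SD over arms. The two-sided p from exact permutation of signs was 1, and 3 arms cannot go below 0.25. By cluster the mean was −0.551 points for HoxA, −6.27 for HoxB, −3.82 for HoxC and −1.73 for HoxD (exact permutation p from 0.5 to 1, adjusted over the 4 clusters 1 in each). HoxC did not differ between conditions in SIT and left, at 100% in all 4 lists. Without the right arm the mean difference was 0.830 points.

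Start sites were followed in the same way. In SIT, 1 of 39 Hox start sites inside a sedentary peak was outside in exercised (Hoxa13, 2.56%), against 3.68% of all genes inside in sedentary. In the left arm it was 2 of 38 (Hoxa13 and Hoxd13, 5.26%), against 13.9%. In the right arm it was 8 of 38 (21.1%), namely Hoxa4, Hoxb2, Hoxb4, Hoxc8, Hoxc11, Hoxc13, Hoxd9 and Hoxd13, against 50.5% of all genes. In SIT the Hox share was near that of all genes. Hox start sites outside in sedentary numbered 0 in SIT, 1 in the left arm (Hoxa4) and 1 in the right arm (Hoxa13), and both stayed outside in exercised. Hemisphere and mouse cannot be told apart between the left and right arms.

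Other broad domains were set beside the clusters, here as single peaks of at least 50 kb, without joining, in the sedentary list of an arm, so that a cluster could hold 2 of them. In the right arm, the exercised list covered the 5 such Hox peaks to a median of 90.8% (80.6 to 98.3%) and the 101 others to a median of 70.7% (21.2 to 97.5%). Per 100 kb of domain it held a median of 4.34 peaks in the Hox domains and 8.76 in the others. In SIT the medians covered were 99.3% for 5 Hox domains and 100% for 56 others, and in the left arm 99.6% for 4 and 99.99% for 28. The ranges overlapped in every arm. The Hox domains were wider, with median widths of 125984 to 158177 bp against 62067 to 63465 bp, and width was not matched. Domains were picked by width in the sedentary list, which favours a lower share in the exercised list. Domains picked in the exercised list were not scored, so no difference between Hox and other domains is read from these values.

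Hox genes were compared with 68 other homeobox and Pax genes, a wider set of developmental regulators, many of them known Polycomb targets. The start site of the latter was inside H3K27me3 peaks in 50 to 62 of 68 (73.5 to 91.2%). The mean over 6 lists was 93.6% for Hox genes and 86.8% for the others, a difference of 6.83 ± 2.76 percentage points (SD), with the Hox share higher in 6 of 6 lists. The two-sided p from exact permutation of signs over the lists was 0.03125, and 0.0625 after adjustment over the 2 marks, which is above the threshold of 0.05. Each list scores the same genes, so this p measures agreement between lists and not spread over genes. Of the others, Lhx2, Emx1, Emx2 and Six5 were inside in 0 of 6 lists and Lhx9 and Nkx6-3 in 1. No Hox gene was inside in fewer than 2 lists. For H4K8ac the mean shares were 0 and 1.47% (difference −1.47 ± 1.32 points, exact permutation p = 0.125, adjusted 0.125). With Hox genes at 0 in every list and the others at 0 in 2, this second test could give no other p. H4K8ac peaks lay at the start site of Lhx9 in 3 lists and Lhx2 in 2.

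**Figure D5:**
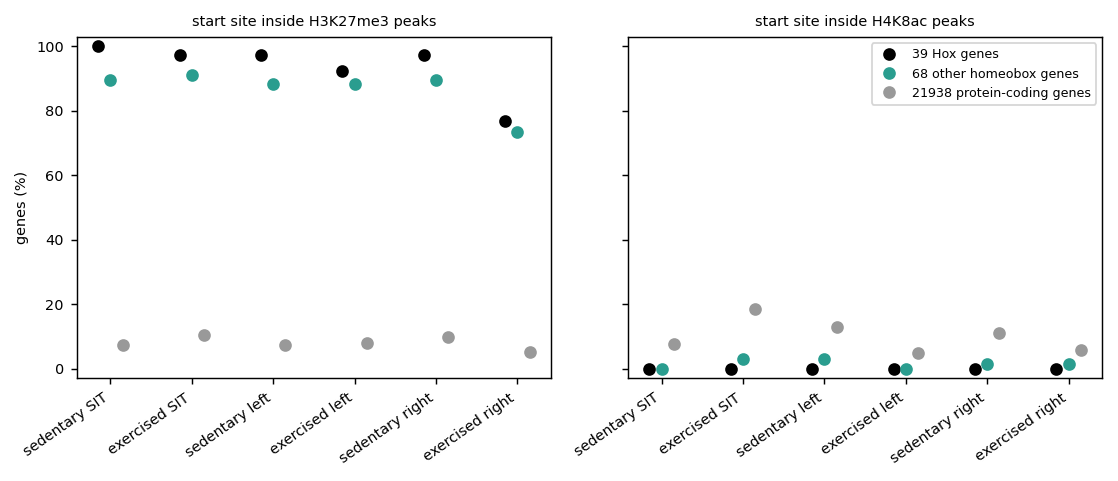
Share of genes (%) with the start site inside H3K27me3 (left) or H4K8ac (right) peaks in each list, for 39 Hox genes (black), 68 other homeobox genes (green) and 21938 protein-coding genes (grey), with no error bars since each point is 1 list. For H3K27me3 the Hox points run from 76.9 to 100%, above the green points in all 6 lists, and for H4K8ac all Hox points are at 0.

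Genes that work with or above Hox proteins were read from the same lists. Of the 9 cofactors, the Pbx, Meis and Pknox proteins that bind DNA beside Hox proteins, 0 to 2 had the start site inside H3K27me3 peaks: Meis1 in 5 lists, Meis2 in 2, and the other 7 in none. Meis3 was the one with H4K8ac at the start site, in 5 lists. Of all protein-coding genes, 4.99 to 10.4% were inside H3K27me3 peaks, so the cofactor counts are near the background. The Cdx genes, which switch on posterior Hox genes in the embryo, were mostly covered, with Cdx1 and Cdx2 inside H3K27me3 peaks in 6 lists and Cdx4 in 4. Of the other ParaHox genes, close relatives of Hox genes outside the 4 clusters, Pdx1 and Gsx2 were inside in 6 and Gsx1 in 5. The Cdx and ParaHox genes had no H4K8ac peak at the start site in any list.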

How the data were processed

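The authors deposited 12 annotated peak lists, 1 per mark, condition and arm. Reads were aligned with Bowtie2 2.4.1 after FastQC 0.11.9, peaks were called with SEACR (stringent, 0.01) and annotated with ChIPseeker 1.8.6 against mm10, and 4 exercised H4K8ac libraries with a high false discovery rate were left out by the authors. How libraries were pooled is not given in the sources used here. For its overlap of SIT peaks with RNA, the paper gives fewer mice per condition than the 4 samples labelled, so a SIT list may hold fewer. The deposited columns used were peak start, end and width in bp and the symbol. The peak lists hold no counts, signal or depth per library, and no other data type was analysed here, so no count test was made. The IgG samples, 20 of 60, are not analysed here.

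Genes came from GENCODE M21 (GRCm38), and 22 of 22 Hox transcripts named in the lists had the same start and end there. Sequence and repeats (soft-masked) came from RefSeq GRCm38.p6, and positions were used as listed. Overlap meant at least 1 bp. Differences between lists were tested with the exact two-sided sign-flip permutation test and Benjamini-Hochberg adjustment at 0.05. Named genes were Hox genes at the cluster ends, those with the start site outside H3K27me3 peaks in at least 1 list, and the genes at breaks and borders, beside fixed lists of neighbours, cofactors and other homeobox genes. Hoxa5 and Hoxa9 (for contrast) and the limit of 35 CpG were chosen after values were seen. The members and lists were chosen with earlier results of these data known. Alternatives were wider windows, equal numbers of peaks by width, closed gaps, half-covered genes (50% of the body), start windows of 1000 bp and leaving out 1 arm. Interval overlaps were tested on simulated data and gave the right base totals in 200 of 200 draws. Python 3.11.15, numpy 2.4.6, pandas 2.3.3, scipy 1.17.1 and matplotlib 3.10.9 were used. Some genes and the values that need them are not reported here.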

Additional observations from a re-analysis of the deposited data

Results flagged for a closer look

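The direction of the exercised and sedentary difference in H3K27me3 covered share of the 4 Hox clusters was not the same in the 3 arms. It was 0.215 percentage points in SIT and 1.45 points in the left arm, where exercised was higher, and −12.4 points in the right arm, where it was lower. Each arm gives 1 value, so the difference between arms was not tested. The exercised right list, which sets the last value, also had the fewest H3K27me3 peaks (9899) and the least covered length (41.2 Mb). Cutting each list to its 9899 widest peaks removed nothing from exercised right, so its 87.0% of the 4 clusters could not change. The other 5 lists kept their widest peaks and covered 96.0 to 99.4%. The part of list length was not tested by this cut.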

How the results depend on the processing

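No paired analysis was possible because the lists do not separate mice and carry no replicate numbers, and lists were matched by arm alone. Widening the spans by 50 kb moved the H3K27me3 covered share from 96.4 to 83.7%. By the files' symbols, a mean of 7.33 Hox genes per list carried the mark instead of 36.5 by start site. RefSeq start sites gave 36.3, with 29 in exercised right, where Hoxc5 and Hoxc12 took the place of Hoxc8. The 55 breaks became 29 with gaps under 1000 bp closed, 3 with gaps under 5000 bp closed and 27 without the exercised right list.

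Leaving out 1 arm in turn gave covered shares of 95.2 to 98.0% and 35.5 to 37.75 Hox genes. The exercised minus sedentary difference then ranged from −6.08 to 0.830 points, and the positive value was the one without the right arm. The H3K27me3 against H4K8ac difference stayed at 95.2 to 98.0 points and the Hox against other homeobox difference at 6.10 to 7.46 points, both with an exact permutation p of 0.125, the smallest that the 4 remaining lists allow and, for the first, the only one possible with H4K8ac at 0. Without the Pax genes, an alternative chosen after seeing the data like those by symbol, by RefSeq and without exercised right, the homeobox difference was 8.28 points (exact permutation p = 0.03125). The median reach of the domains past the cluster ends was 18.3 kb without joining and 27.9 kb with peaks under 5 kb apart joined. The other alternatives of the tested differences kept direction and side of the threshold. The peak lists give no depth, and its part in the breaks was not tested.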
